A study of Mus musculus with 12 samples.

Results

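The proteasome genes described here are the 50 protein-coding genes of the mouse GENCODE vM21 annotation whose symbols begin with Psma, Psmb, Psmc, Psmd, Psme, Psmf or Psmg and a digit, out of 55487 genes in the table. Of these, 48 had a mean of at least 1 FPKM (fragment counts scaled to gene length and library size) over the 12 libraries and were tested among 11841 genes that passed the same filter. Psma8, a testis subunit, and Psmb11, a thymus subunit, did not pass: Psma8 reached at most 0.215 FPKM and Psmb11 at most 0.0109 FPKM in any library. The symbol rule also takes in Psmc3ip, a meiotic recombination factor that is not a proteasome protein, and Psme2b, a gene close in sequence to Psme2. Reads of Psme2 and Psme2b may have been split in the authors' counting. The values of Psme2b are therefore uncertain, and those of Psme2 may be affected.

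RNA was measured in naive splenic B cells of 2 genotypes, wild type (WT) and a knockout of Fcmr (Fcmr KO), which encodes a receptor for the Fc part of IgM. All cells were stimulated through the B cell receptor with F(ab')2 anti-IgM at 10 µg/mL, for 1 h or for 6 h, which gave 4 groups of 3 libraries: WT at 1 h, Fcmr KO at 1 h, WT at 6 h and Fcmr KO at 6 h. The comparison of 6 h with 1 h is therefore between stimulated cells, longer time in culture included, and unstimulated cells were not analysed here. The labels call the 3 samples of a group biological replicates but give no animal, age or knockout allele. A p-value here therefore reflects the spread among these libraries and no more. For the limma test used below, the 4 groups shared 1 estimate of that spread per gene, moderated over all genes tested.

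The proteasome is the protease that degrades ubiquitin-tagged proteins in the cytosol and nucleus. Its 20S core is a barrel of outer alpha rings and inner beta rings, of which 3 beta subunits carry the active sites, and its 19S cap holds an ATPase ring that unfolds substrates and a lid that removes ubiquitin. In lymphocytes and under interferon, the catalytic subunits Psmb8, Psmb9 and Psmb10 can take the place of Psmb5, Psmb6 and Psmb7 in newly built cores, which are then called immunoproteasomes and are known for making peptides for MHC class I.

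Library totals recovered from the FPKM values ran from 19260751 to 24058818 fragments. Among the tested members, the least covered was Psmc3ip with 53 to 191 fragments a library and the most covered Psme3 with 3914 to 11506, which limits precision for Psmc3ip, Psmg3 (77 to 242) and Psmg4 (86 to 334). Fcmr, the targeted gene, stood at 352.4 to 401.2 FPKM in the 6 WT libraries and 42.6 to 50.1 FPKM in the 6 Fcmr KO libraries. Of the B cell markers, Ms4a1 stood at 142.5 to 381.4 FPKM and Cd79a at 197.5 to 849.2 FPKM over the 12 libraries, both lower in every library at 6 h than in any at 1 h. In both genotypes 8 of the 9 B cell markers were lower and 1 (Cd79b) higher at 6 h, at a limma adjusted p under 0.05. The summed level of 9 macrophage markers was 155.1 to 191.5 FPKM in WT and 99.0 to 112.5 FPKM in Fcmr KO at 1 h, and 28.1 to 33.0 FPKM and 23.2 to 27.5 FPKM at 6 h, with no marker at 0 throughout a group. Neutrophil markers summed to 840.0 FPKM in the highest and 55.9 FPKM in the lowest WT library at 1 h, against 25.1 to 68.7 FPKM in Fcmr KO, and at 6 h ran from 16.5 to 379.0 FPKM in WT and from 15.5 to 42.7 FPKM in Fcmr KO. Erythroid markers summed to 517.5 to 1858.9 FPKM in WT and 490.7 to 1256.3 FPKM in Fcmr KO at 1 h. At 6 h they summed to 299.1 to 685.4 FPKM and 297.0 to 530.7 FPKM. T cell markers summed to 53.3 to 69.5 FPKM over the 12 libraries. In bulk samples, fewer cells of a type and less RNA per cell cannot be told apart. The part of these other cells in the results below was not tested.

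**Figure D1:**
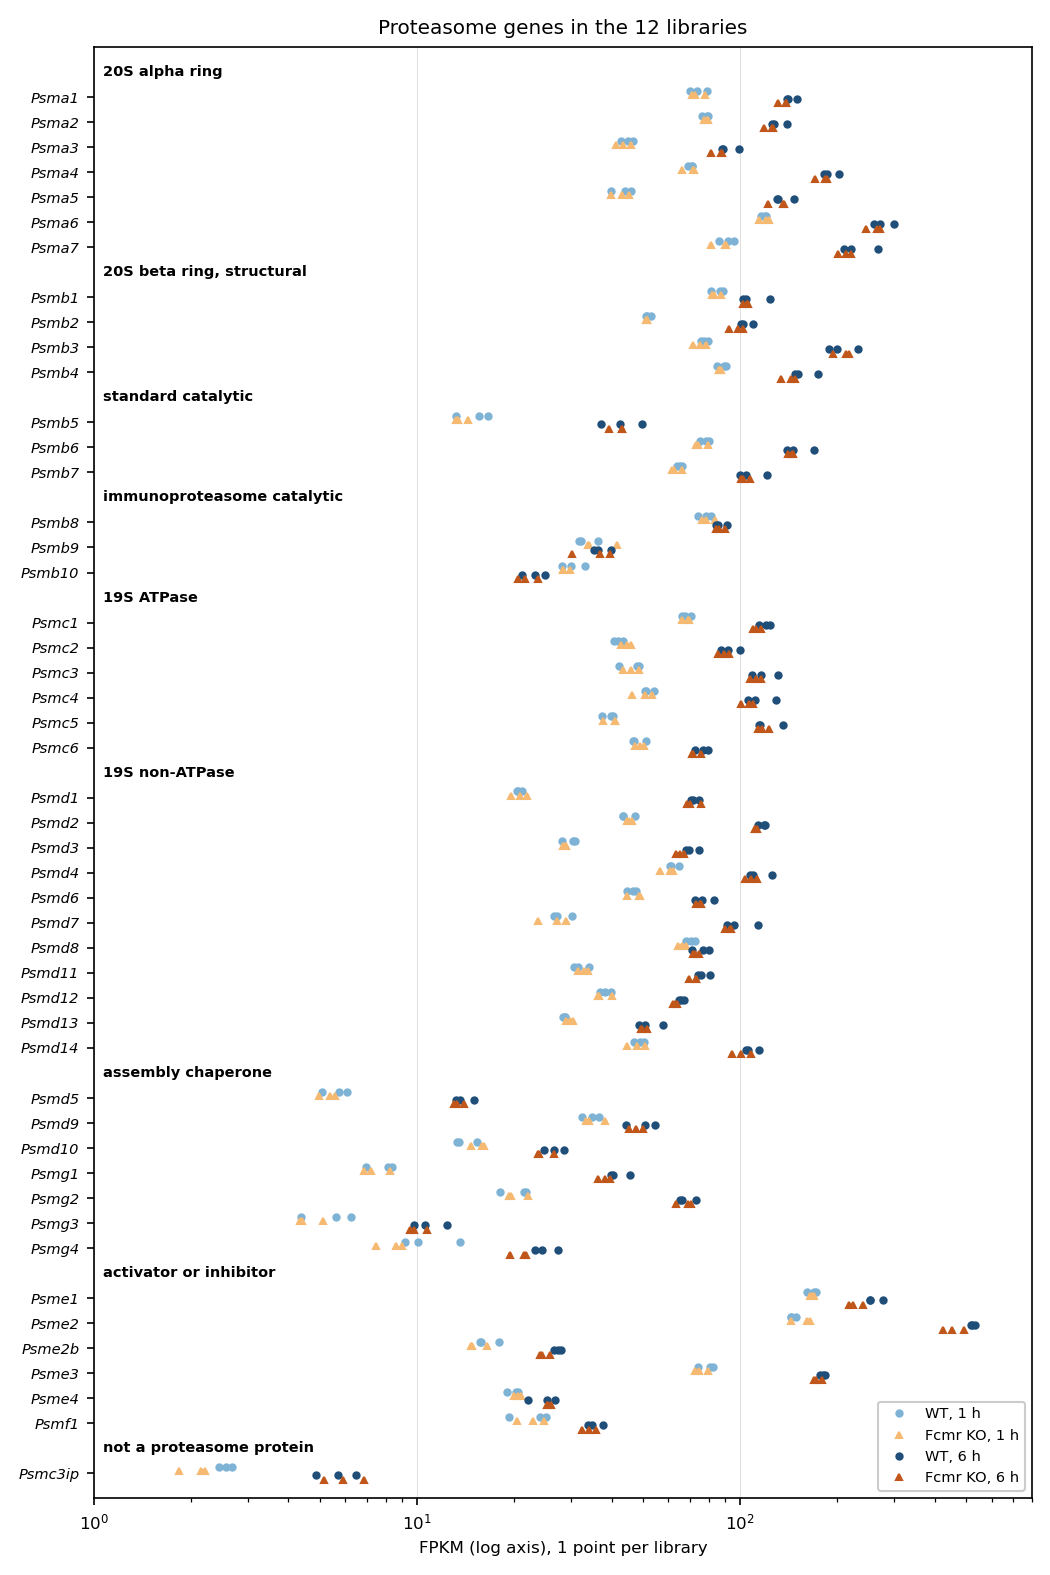
FPKM of the 48 tested proteasome genes in each of the 12 libraries, on a log axis, grouped by role (circles, WT; triangles, Fcmr KO; pale, 1 h; dark, 6 h). At 6 h most genes lie to the right of their 1 h points in both genotypes, while Psmb8, Psmb9, Psmb10 and Psmd8 lie close to theirs or to the left.

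The proteasome genes were higher at 6 h than at 1 h almost as a body. In WT, 45 of the 48 tested members were called higher, 1 (Psmb10) lower and 2 (Psmb9 and Psmd8) neither, at a limma adjusted p under 0.05. Over all genes tested, 49.5% were called higher and 29.2% lower in the same comparison. In Fcmr KO, 46 members were called higher, 1 (Psmb10) lower and 1 (Psmb9) neither, against 50.6% of all genes higher and 27.9% lower. The members' median log2 fold change was 0.969 in WT and 0.965 in Fcmr KO, beside 0.212 and 0.218 over all genes tested. In fragments, the 47 proteasome genes other than Psmc3ip took 0.344% ± 0.0101 (SD, n = 3) of a WT library at 1 h and 0.710% ± 0.0399 at 6 h. In Fcmr KO they took 0.342% ± 0.0110 and 0.670% ± 0.0217.

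FPKM is relative to the library total, and here the scale matters. Dividing each library by its median ratio to the others moved the median of all genes from 0.212 to -0.029 in WT and from 0.218 to -0.034 in Fcmr KO. On that scale 38.1% of all genes were higher and 39.8% lower in WT, 38.2% and 39.0% in Fcmr KO. The members' medians were then 0.698 and 0.686, with 42 higher and 3 lower (Psmb8, Psmb10, Psmd8) in WT, and 41 higher and 4 lower (those and Psmb9) in Fcmr KO. Psmb1, Psme4 and, in Fcmr KO, Psmd9 were no longer called on that scale.

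**Figure D2:**
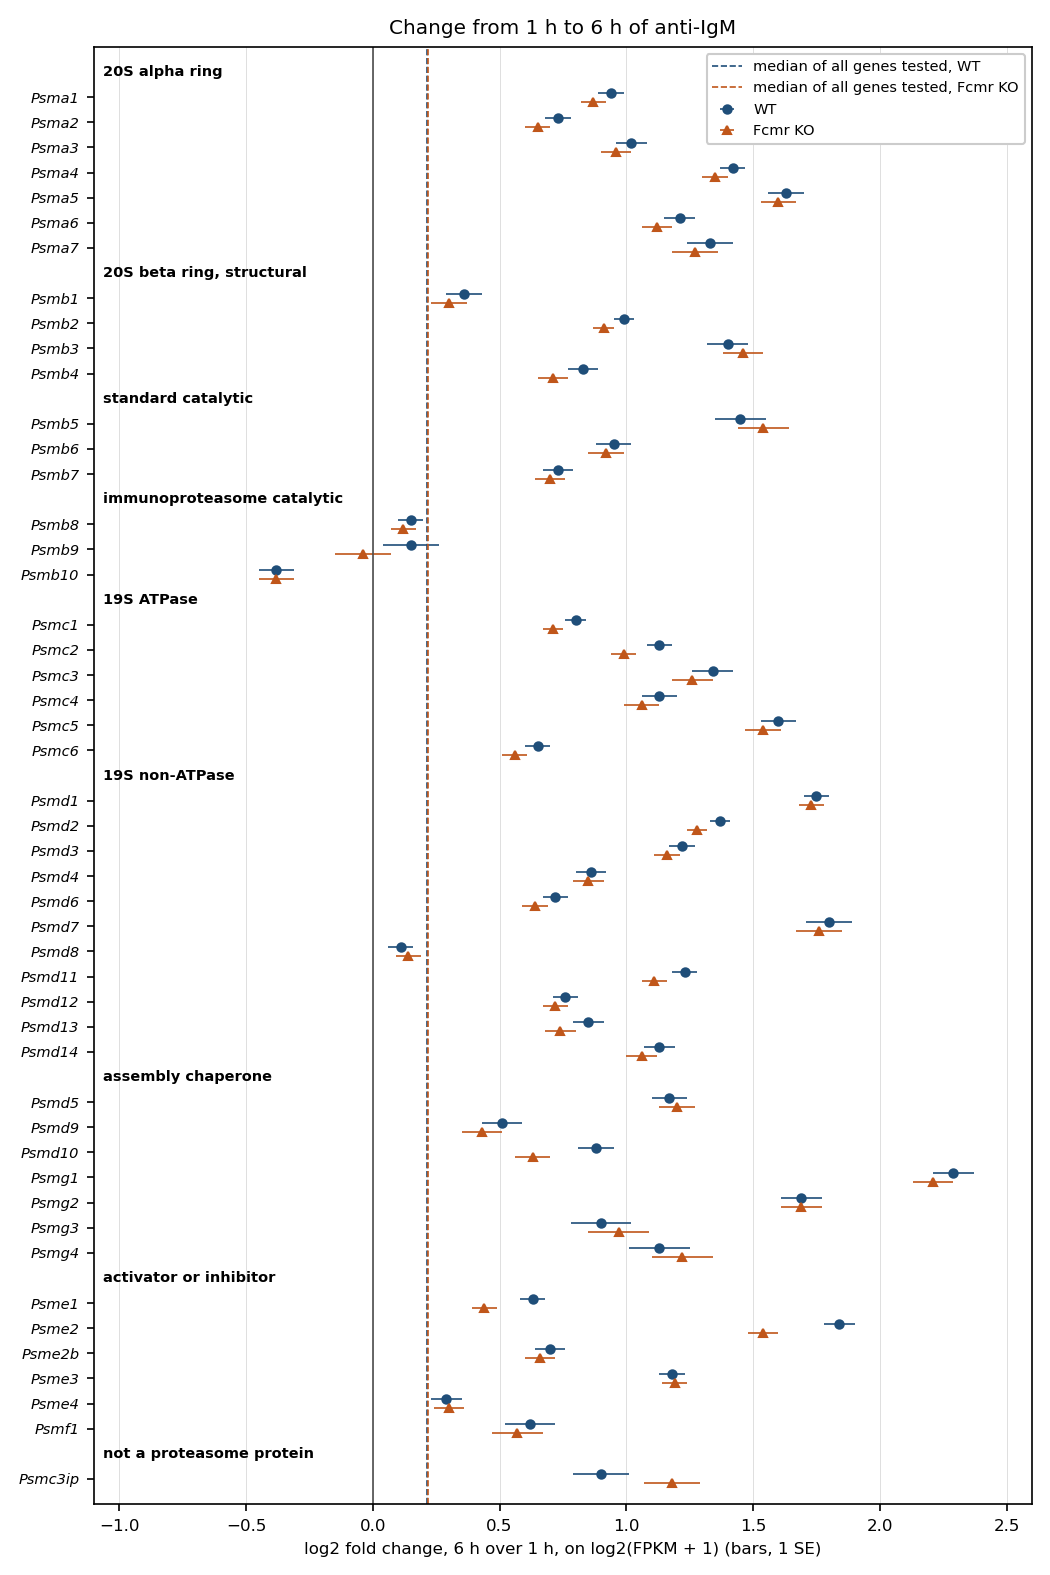
Log2 fold change from 1 h to 6 h of each tested proteasome gene on the log2(FPKM + 1) scale, in WT (circles) and Fcmr KO (triangles), with 1 SE. Solid line, no change; dashed lines, medians of all genes tested (0.212 and 0.218). Most genes lie right of the dashed lines, Psmg1 lies farthest at 2.29 and 2.21, and the 3 immunoproteasome catalytic subunits lie between -0.38 and 0.15.

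In the outer rings of the core, which gate entry, all 7 alpha subunits rose in both genotypes. Their log2 fold changes ran from 0.73 to 1.63 in WT and from 0.65 to 1.60 in Fcmr KO. Psma5 changed most: it stood at 45.9, 44.0 and 39.7 FPKM in the WT libraries at 1 h and at 129.9, 146.7 and 130.9 at 6 h, with 45.2, 39.7 and 43.0 and then 136.5, 135.6 and 121.8 in Fcmr KO. The times did not overlap in either genotype, and the log2 fold changes were 1.63 ± 0.07 (SE, n = 3 a group; limma adjusted p = 6.19e-09) and 1.60 ± 0.07 (7.28e-09). Psma6 was the most abundant alpha subunit per length, at a mean of 118.6 FPKM in WT at 1 h and 276.6 FPKM at 6 h. Rankings between genes, here and below, depend on the gene lengths behind the FPKM, recovered as 787 bases for Psma6 and 2846 for Psma3. In fragments a library, Psma6 had 1759 to 5194 and Psma3 2375 to 6211. Psma2 changed least, by 0.73 ± 0.05 in WT and 0.65 ± 0.05 in Fcmr KO.

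The 4 structural subunits of the beta ring, Psmb1, Psmb2, Psmb3 and Psmb4, rose too, and were spread widely. Psmb3 rose by 1.40 ± 0.08 in WT and 1.46 ± 0.08 in Fcmr KO, Psmb2 by 0.99 ± 0.04 and 0.91 ± 0.04, and Psmb4 by 0.83 ± 0.06 and 0.71 ± 0.06. Psmb1 rose by 0.36 ± 0.07 (limma adjusted p = 0.00046) and 0.30 ± 0.07 (0.00147), and this call was lost under median scaling (0.08 and 0.01). Across the 14 standard core subunits, mean levels per length in WT ran from 15.1 FPKM (Psmb5) to 118.6 FPKM (Psma6) at 1 h, a 7.85-fold range, and from 43.1 to 276.6 FPKM at 6 h, a 6.42-fold range. The same genes were lowest and highest in Fcmr KO. A core built only of these subunits holds equal numbers of each, and their transcripts were not at equal levels. Psmb5, the lowest, can be replaced by Psmb8, and Psmb5 and Psmb8 summed to 93.1 FPKM in WT at 1 h and 129.9 FPKM at 6 h.

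The 3 catalytic pairs parted over time: the standard subunit of each pair rose in both genotypes, while the log2 fold change of its immunoproteasome counterpart lay between -0.38 and 0.15. For the chymotrypsin-like site, Psmb5 was at 15.6, 16.6 and 13.2 FPKM in WT at 1 h and 37.1, 49.8 and 42.4 at 6 h, and at 13.4, 13.2 and 14.4 and then 43.0, 43.0 and 39.4 in Fcmr KO. All libraries at 6 h lay above all libraries at 1 h, and Psmb5 rose by 1.45 ± 0.10 in WT and 1.54 ± 0.10 in Fcmr KO (limma adjusted p = 1.96e-07 and 1.21e-07).

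Psmb8, the immunoproteasome subunit of that site, was at 74.3, 81.4 and 78.4 FPKM in WT at 1 h and 84.0, 91.2 and 85.2 at 6 h, and at 78.6, 76.4 and 83.7 and then 86.3, 90.0 and 84.0 in Fcmr KO. The times were separated by small gaps. Its log2 fold changes of 0.15 ± 0.05 (limma adjusted p = 0.018) and 0.12 ± 0.05 (0.0447) were below the median of all genes and turned to -0.12 (0.0369) and -0.17 (0.00876) under median scaling, so that no direction is given for Psmb8.

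For the caspase-like site, Psmb6 was at 79.9, 78.3 and 74.9 FPKM in WT at 1 h and 145.6, 169.1 and 139.5 at 6 h, and at 79.7, 72.8 and 74.0 and then 145.3, 144.2 and 140.8 in Fcmr KO. It rose by 0.95 ± 0.07 and 0.92 ± 0.07 (limma adjusted p = 1.52e-07 and 2.03e-07), with no overlap between the times. Psmb9, its counterpart, was at 32.2, 36.3 and 31.7 FPKM at 1 h and 36.3, 35.3 and 39.7 at 6 h in WT, and at 33.8, 34.1 and 41.7 and then 30.2, 39.6 and 36.9 in Fcmr KO. These times overlapped, and the log2 fold changes were 0.15 ± 0.11 (limma adjusted p = 0.223) and -0.04 ± 0.11 (0.738). Under median scaling they were -0.12 (0.292) and -0.33 (0.0133).

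For the trypsin-like site, Psmb7 was at 65.1, 63.6 and 66.2 FPKM in WT at 1 h and 104.6, 120.9 and 100.2 at 6 h, and at 66.0, 61.6 and 62.2 and then 107.5, 102.2 and 100.3 in Fcmr KO. It rose by 0.73 ± 0.06 and 0.70 ± 0.06 (limma adjusted p = 1e-06 and 1.43e-06). Psmb10, its counterpart, was at 28.1, 33.1 and 30 FPKM at 1 h and 21.2, 24.9 and 23.2 at 6 h in WT, and at 28.3, 28.2 and 29.8 and then 21.6, 23.6 and 20.5 in Fcmr KO. Every library at 6 h lay below every library at 1 h. Psmb10 changed by -0.38 ± 0.07 in WT and -0.38 ± 0.07 in Fcmr KO (limma adjusted p = 0.000613 and 0.000628), and by -0.65 and -0.66 under median scaling.

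A ratio within a library does not depend on how libraries are scaled. Psmb8 made up 82.7, 83.1 and 85.6% of the summed FPKM of Psmb8 and Psmb5 in WT at 1 h and 69.4, 64.7 and 66.8% at 6 h, and 85.4, 85.2 and 85.3% and then 66.8, 67.7 and 68.1% in Fcmr KO. Psmb9 made up 30% ± 1.49 (SD, n = 3) of its pair in WT at 1 h and 19.8% ± 2.45 at 6 h, and 32.6% ± 3.19 and 19.8% ± 2.31 in Fcmr KO. Psmb10 made up 31.9% ± 2.15 and 17.6% ± 1.05 of its pair in WT, and 31.3% ± 1.18 and 17.5% ± 1.11 in Fcmr KO. In each pair and genotype the immunoproteasome share was lower in all libraries at 6 h than in any at 1 h. Per length, Psmb8 remained above Psmb5 in all 12 libraries, while Psmb9 and Psmb10 were below Psmb6 and Psmb7 in all 12.

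The log2 ratio of immunoproteasome to standard subunit changed from 1 h to 6 h by -1.35 (Psmb8 to Psmb5), -0.81 (Psmb9 to Psmb6) and -1.13 (Psmb10 to Psmb7) in WT, and by -1.48, -0.97 and -1.1 in Fcmr KO. Each of these 6 comparisons gave a two-sided exact permutation p = 0.1, the smallest that 3 against 3 libraries allow, and 0.2 after adjustment over 12 ratio tests. The labels do not say whether a replicate number marks the same animal at both times. Same-numbered libraries of the 2 times deviated together within a genotype, and the pairing used next was inferred from that. The test on the 6 pairs of both genotypes together was chosen after seeing the data. The mean changes were -1.42, -0.89 and -1.12, each with a two-sided exact sign-flip permutation p = 0.0312, the smallest that 6 pairs allow. In each genotype every ratio at 6 h already lay below every ratio at 1 h. Any pairing would thus have given this p, so that it adds nothing to the tests above. The summed FPKM of each pair was higher at 6 h: in WT it went from 93.1 to 129.9 for Psmb8 and Psmb5, from 111.1 to 188.5 for Psmb9 and Psmb6 and from 95.4 to 131.6 for Psmb10 and Psmb7.

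**Figure D3:**
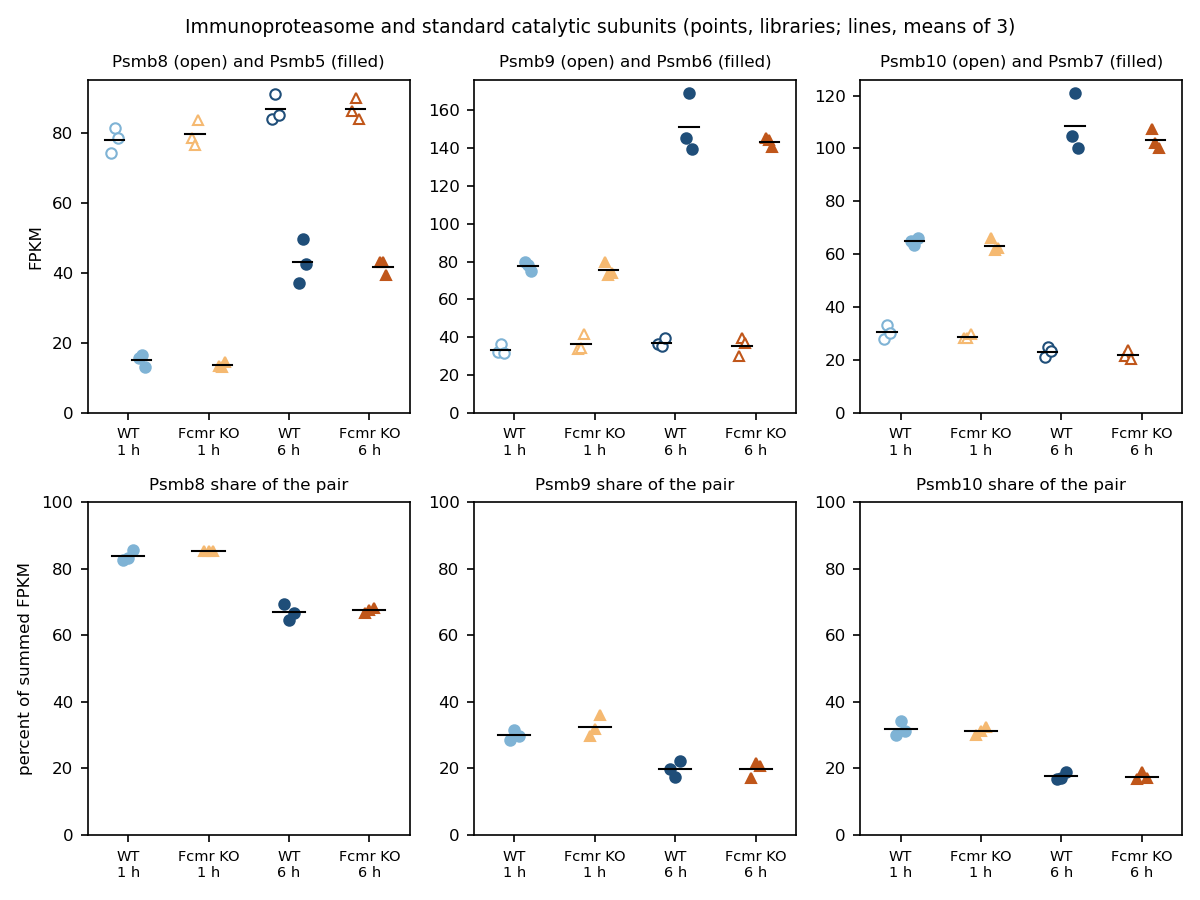
Top, FPKM of each immunoproteasome catalytic subunit (open) and its standard counterpart (filled) in the 3 libraries of each group, with means as lines. Bottom, the immunoproteasome subunit as a percentage of the summed FPKM of its pair. The standard subunits are higher at 6 h in every library and all 3 shares are lower, from 83.8 to 66.9% for Psmb8, 30 to 19.8% for Psmb9 and 31.9 to 17.6% for Psmb10 as WT means.

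Psmb8 and Psmb9 lie 9956 bases apart on chromosome 17 in the MHC region, with the peptide transporter gene Tap1 between them, which overlaps Psmb9 on the opposite strand. The libraries kept the strand, but the setting used in counting is not given in the sources used here, so that reads of Psmb9 and Tap1 may have been mixed. Genes on the opposite strand also overlap Psmb7 (Nek6), Psmb8 (Gm20496) and Psmb10 (Gm16156), and 19 of the 50 members in all, and the same limit holds for them. Tap1 itself was not called in either genotype (0.14, limma adjusted p = 0.255, in WT and 0.01, 0.923, in Fcmr KO). Psmb10 lies on chromosome 8.

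Upstream sequence is shown for 2 standard catalytic genes that rose, for the immunoproteasome gene that fell and for the assembly chaperone Psmg1, which rose most. The stretches are RefSeq promoter sequence of build GRCm38.p6, 5′ to 3′, within 250 bases upstream of the start site and without annotated exon bases: chr14:54618023-54618245 (minus strand), chr11:70525107-70525356 (plus), chr8:105938445-105938642 (minus) and chr16:95990961-95991210 (minus). Capitals mark matches to the motifs searched.
Psmb5: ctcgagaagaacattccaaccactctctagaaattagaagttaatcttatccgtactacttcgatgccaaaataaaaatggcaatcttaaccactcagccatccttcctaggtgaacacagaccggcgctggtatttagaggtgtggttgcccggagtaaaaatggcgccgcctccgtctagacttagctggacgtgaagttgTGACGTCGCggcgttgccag
Psmb6: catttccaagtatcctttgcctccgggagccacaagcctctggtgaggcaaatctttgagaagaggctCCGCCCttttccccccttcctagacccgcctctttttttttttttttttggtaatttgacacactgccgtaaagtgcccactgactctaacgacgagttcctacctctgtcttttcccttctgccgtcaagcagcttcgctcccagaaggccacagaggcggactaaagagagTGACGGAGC
Psmb10: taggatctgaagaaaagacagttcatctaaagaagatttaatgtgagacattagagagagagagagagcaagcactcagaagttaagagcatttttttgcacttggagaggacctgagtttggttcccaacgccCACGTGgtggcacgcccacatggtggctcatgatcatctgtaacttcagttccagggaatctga
Psmg1: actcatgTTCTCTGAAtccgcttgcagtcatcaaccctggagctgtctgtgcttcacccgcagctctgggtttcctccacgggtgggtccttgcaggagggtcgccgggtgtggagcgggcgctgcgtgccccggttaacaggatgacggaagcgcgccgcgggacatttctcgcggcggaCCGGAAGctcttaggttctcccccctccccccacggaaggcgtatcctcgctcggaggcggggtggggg
Psmb5 and Psmb6 hold a match to TGACNNNGC, the core of the antioxidant response element that NRF1 (Nfe2l1) and NRF2 (Nfe2l2) bind, at -47 to -39 and -9 to -1, and Psmb6 also a GC box. Psmb10 holds an E-box, CACGTG, and Psmg1 an ETS core, CCGGAAG, and a STAT core, TTCNNNGAA.

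Across the members, 42 of 50 had RefSeq promoters, 45 in all, which were searched on both strands over the 250 bases upstream and set beside 32851 mouse promoters of the same length. Entries were missing for Psmb1, Psmb2, Psmb7, Psmc3, Psmd3, Psmd7, Psmg2 and Psma8. The ETS core CCGGAAG was in 14 member promoters (31.1%) and in 6.91% of all promoters, and the GC box GGGCGG in 23 (51.1%) and in 32.7%. The antioxidant response core TGACNNNGC was in 5 (11.1%, of Psmb5, Psmb6, Psmc6, Psmd9 and Psmd12) and in 10.2% of all. CCAAT was in 33.3% against 33.8%, CACGTG in 8.89% against 6.02%, the interferon response element core in 6.67% against 2.98% and TTCNNNGAA in 4.44% against 7.02%. The interferon response element core was not found in the windows of Psmb8, Psmb9 or Psmb10, though the Psmb10 window lacks the 52 bases nearest the start site. Psmb8 held a STAT core at -97 to -89. Motifs that overlapped were each counted, the motifs were chosen after results were known, and a match is a run of letters and no more.

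In the 19S cap, the 6 ATPases Psmc1 to Psmc6, which form the unfolding ring, all rose in both genotypes, by 0.65 (Psmc6) to 1.60 (Psmc5) in WT and by 0.56 to 1.54 in Fcmr KO. Their levels per length stayed close to each other, with a 1.74-fold range of means at 1 h and a 1.59-fold range at 6 h in WT. Psmc5, the lowest of the 6 at 1 h (39.2 ± 1.67 FPKM in WT, SD, n = 3), was the highest at 6 h (121.5 ± 12.1 FPKM), and Psmc1, Psmc3 and Psmc4 lay within the spread of it at 6 h in WT.

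Of the 11 non-ATPase subunits of the cap, 10 were called higher in WT and 11 in Fcmr KO, where the call of Psmd8 depended on the scaling. Psmd7, a lid subunit that pairs with the deubiquitinase Psmd14, was at 30.2, 27.1 and 26.5 FPKM in WT at 1 h and 95.9, 113.6 and 90.8 at 6 h, and at 28.9, 23.7 and 27.1 and then 93.9, 93.0 and 89.9 in Fcmr KO. The times were far apart, and Psmd7 rose by 1.80 ± 0.09 (limma adjusted p = 1.22e-08) and 1.76 ± 0.09 (1.46e-08). Psmd1, a scaffold of the base, was at 21.2, 20.6 and 20.4 FPKM in WT at 1 h and 71.6, 74.5 and 70.5 at 6 h, and at 21.9, 19.6 and 20.9 and then 75.4, 69.7 and 68.7 in Fcmr KO, a rise of 1.75 ± 0.05 (3.6e-10) and 1.73 ± 0.05 (4.39e-10). The others that rose were Psmd2, Psmd3, Psmd4, Psmd6, Psmd11, Psmd12, Psmd13 and Psmd14, by 0.72 to 1.37 in WT and 0.64 to 1.28 in Fcmr KO. Psmd14 rose by 1.13 ± 0.06 and 1.06 ± 0.06, and the ubiquitin receptor Psmd4 by 0.86 ± 0.06 and 0.85 ± 0.06.

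Psmd8, a lid subunit, was the exception among the Psmc and Psmd subunits of the cap. It was at 68.2, 70.2 and 72.3 FPKM in WT at 1 h and 76.7, 80.1 and 71.0 at 6 h, which overlapped, and at 68.1, 64.0 and 66.3 and then 72.4, 74.7 and 71.5 in Fcmr KO, which did not. The log2 fold changes were 0.11 ± 0.05 (limma adjusted p = 0.0546) in WT and 0.14 ± 0.05 (0.0203) in Fcmr KO, and -0.17 (0.00974) and -0.15 (0.0158) under median scaling. Per length it was the most abundant of the 11 non-ATPase subunits at 1 h, with means of 70.2 and 66.2 FPKM, and Psmd2, a base scaffold, was the most abundant at 6 h, with 117.0 and 111.9 FPKM.

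All 7 assembly chaperones, which build the complex and are not part of it, rose in both genotypes. Psmg1 and Psmg2 pair to seat the alpha ring. Psmg1 was at 8.34, 8.11 and 6.94 FPKM in WT at 1 h and 39.7, 45.5 and 40.5 at 6 h, and at 8.26, 6.86 and 7.22 and then 39.5, 38.3 and 36.2 in Fcmr KO. Of all members it changed most, by 2.29 ± 0.08 in WT and 2.21 ± 0.08 in Fcmr KO (limma adjusted p = 1.31e-09 and 1.85e-09), which is 5.37 and 5.10 times as ratios of mean FPKM.

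Psmg2 was at 21.8, 21.5 and 18.1 FPKM in WT at 1 h and 65.3, 72.9 and 65.9 at 6 h, and at 22.0, 19.3 and 19.6 and then 70.5, 69.0 and 63.3 in Fcmr KO. The times did not overlap, and it rose by 1.69 ± 0.08 in both genotypes (limma adjusted p = 8e-09 and 8.06e-09). Psmg3 and Psmg4, which act together at the same step, rose by 0.90 ± 0.12 and 1.13 ± 0.12 in WT and by 0.97 ± 0.12 and 1.22 ± 0.12 in Fcmr KO. Of the chaperones of the 19S base, Psmd5 rose by 1.17 ± 0.07 and 1.2 ± 0.07, Psmd10 by 0.88 ± 0.07 and 0.63 ± 0.07, and Psmd9 by 0.51 ± 0.08 and 0.43 ± 0.08.

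The 6 activators and inhibitors of the core rose in both genotypes, unevenly. Psme2 and Psme1 are the partner subunits of the PA28 activator, which opens the alpha ring and is itself induced by interferon. Psme2 was at 149.1, 143.7 and 144.0 FPKM in WT at 1 h and 523.2, 531.6 and 517.6 at 6 h, and at 164.4, 143.5 and 160.7 and then 454.0, 492.4 and 423.9 in Fcmr KO. It rose by 1.84 ± 0.06 (limma adjusted p = 9.41e-10) and 1.54 ± 0.06 (2.93e-09) and was the most abundant member per length at 6 h in all 6 libraries.

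Psme1 was at 171.1, 169.7 and 161.3 FPKM in WT at 1 h and 252.6, 277.0 and 252.2 at 6 h, and at 166.4, 164.4 and 168.8 and then 224.1, 240.1 and 216.5 in Fcmr KO. It rose by 0.63 ± 0.05 (limma adjusted p = 4.96e-07) and 0.44 ± 0.05 (1.01e-05). The ratio of Psme2 to Psme1 FPKM was thus 0.870 ± 0.023 (SD, n = 3) in WT and 0.938 ± 0.0593 in Fcmr KO at 1 h, and 2.01 ± 0.0831 and 2.01 ± 0.0481 at 6 h. The ratio was looked at after the values were seen and was not tested. The genes lie 5911 bases apart on chromosome 14 with Emc9 between them, which overlaps Psme1 on the opposite strand.

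Psme3, the nuclear form of the same activator family, was at 82.4, 80.8 and 73.9 FPKM in WT at 1 h and 180.0, 182.6 and 176.5 at 6 h, and at 79.6, 72.6 and 74.6 and then 179.5, 171.6 and 169.1 in Fcmr KO, a rise of 1.18 ± 0.05 and 1.19 ± 0.05 (limma adjusted p = 3.99e-09 and 3.91e-09). Psme4, the PA200 activator, was at 20.5, 19 and 20.3 FPKM and then 25.3, 22.1 and 26.8 in WT, and at 20, 21 and 20.6 and then 25.3, 25.4 and 25.9 in Fcmr KO. It rose by 0.29 ± 0.06 (0.00101) and 0.30 ± 0.06 (0.000834), a call lost under median scaling (0.03 and 0.02). Psmf1, the PI31 regulator, was at 25.0, 24.1 and 19.3 FPKM and then 33.8, 37.7 and 34.8 in WT, and at 24.8, 20.4 and 22.9 and then 34.0, 35.8 and 32.4 in Fcmr KO, a rise of 0.62 ± 0.10 and 0.57 ± 0.10 (0.000108 and 0.00022). Psme2b rose by 0.70 ± 0.06 and 0.66 ± 0.06 at 15.3 to 27.3 FPKM on average, and Psmc3ip by 0.90 ± 0.11 and 1.18 ± 0.11.

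Genes that work with the proteasome but carry other symbols were counted alongside, beside the shares of all genes tested, 49.5% higher and 29.2% lower at 6 h in WT and 50.6% and 27.9% in Fcmr KO. Of 20 tested (ubiquitin shuttles, deubiquitinases, the cap subunits Adrm1 and Sem1 and others), 18 were higher and 2 lower at 6 h in WT (median 0.80), and 18 and 1 in Fcmr KO (median 0.77). Pomp, the chaperone of the beta ring, rose by 1.01 in WT and 0.87 in Fcmr KO (limma adjusted p = 5.04e-09 and 1.41e-08), Ubqln4, a shuttle, by 1.73 and 1.61, Ecpas, a proteasome adaptor, by 0.97 and 0.97, and Ddi2, the protease that activates NRF1, by 0.84 and 0.89. Those lower, named after their values were seen, were Zfand5, which changed by -0.59 and -0.52, and in WT Zfand2a, at -0.11 (limma adjusted p = 0.0303) and, not called, -0.05 (0.26) in Fcmr KO. Under median scaling 15 of the 20 were higher and 2 lower in both genotypes, beside 38.1% of all genes higher and 39.8% lower in WT and 38.2% and 39.0% in Fcmr KO.

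Among 12 regulators of proteasome genes, 4 were higher and 7 lower in both genotypes, where 49.5% of all genes were higher and 29.2% lower in WT and 50.6% and 27.9% in Fcmr KO. Nfe2l1, which encodes NRF1, rose by 1.00 in WT and 0.91 in Fcmr KO and its partner Mafg by 1.03 and 1.12, whereas the related partners Maff and Mafk changed by -1.89 and -1.75, and by -1.05 and -0.91. Nfe2l2, which encodes NRF2 and is named after its values were seen, changed by -0.35 and -0.29 (limma adjusted p = 5.78e-05 and 0.000259). Of 10 genes of ubiquitin and its activating and conjugating enzymes, 7 were higher and 3 lower in both genotypes, the share lower being close to that of all genes (29.2% and 27.9%). The activating enzyme Uba1 rose by 0.67 and 0.64, Ube2l3 by 0.55 and 0.57, Ube2k by 0.54 and 0.51, and Ube2n by 0.32 and 0.27. Among the lower genes, and named after their values were seen, Ubb changed by -0.44 and -0.67 and Ube2d3 by -0.25 and -0.31. Ubb holds repeated ubiquitin sequence that other genes share, so that its reads may have been split and its values are uncertain. Under median scaling 3 regulators were higher and 8 lower in both genotypes, and 5 of the ubiquitin genes higher and 3 lower, with the call of Ube2n lost (0.05 and -0.01). The shares of all genes on that scale were 38.1% higher and 39.8% lower in WT, and 38.2% and 39.0% in Fcmr KO.

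Of 15 genes of MHC class I presentation, 10 were higher and 4 lower in WT, and 9 and 4 in Fcmr KO. Over all genes 49.5% were higher and 29.2% lower in WT, 50.6% and 27.9% in Fcmr KO, so that the counts of lower genes were near the background. The peptide-trimming Erap1 rose by 1.51 and 1.48, Lap3 by 2.02 and 2.07 and Npepps by 0.91 and 0.92, while the class I heavy chain H2-D1, whose reads may be split with those of its close relatives, changed by -0.99 and -0.97. Under median scaling 7 were higher and 4 lower in WT, 6 and 5 in Fcmr KO, where 38.1% and 38.2% of all genes were higher. Of 12 receptors, kinases and factors of interferon signalling, 5 were higher and 4 lower in WT, 5 and 5 in Fcmr KO, the shares in WT being near those of all genes. Ifngr1, a chain of the interferon-gamma receptor, changed by -1.21 and -1.37, Jak1 by -0.83 and -0.84, Irf2 by -0.86 and -0.86, and Irf8 by 0.79 and 0.63. Under median scaling 4 were higher and 5 lower in WT, 4 and 6 in Fcmr KO. All genes on that scale were 38.1% higher and 39.8% lower in WT, and 38.2% and 39.0% in Fcmr KO.

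No proteasome gene was called different between the genotypes at 1 h or at 6 h by the test over all genes. At 1 h, 0 of 48 were called (0.0845% of all genes higher and 0.439% lower), 1 had an unadjusted limma p under 0.05 and was lower (7.57% of all genes), and voom, the same kind of test on the recovered fragments, called 0 with 1 below that level. The smallest p was that of Psmg4, at 10.1, 13.6 and 9.19 FPKM in WT and 7.47, 8.63 and 9 in Fcmr KO, which do not overlap. It differed by -0.34 ± 0.12 (limma adjusted p = 0.313). Psmc3ip followed with -0.22 ± 0.11 (0.478) and Psmd10, a base chaperone, with 0.15 ± 0.07 (0.485). Psmg4, Psmc3ip and Psmd8 were lower in every Fcmr KO library than in any WT library (8.59% of all genes were) and Psmd13 was higher in every one (6.25%); Psmd8 and Psmd13 are named after their values were seen. The difference was negative for 31 of 48 members and for 54.6% of all genes.

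At 6 h, 0 of 48 were called (0.135% of all genes higher and 0.0929% lower), 5 had an unadjusted p under 0.05, all lower in Fcmr KO (3.34% of all genes), and voom called 0 with 6 below that level. Psme1 differed by -0.20 ± 0.05 (limma adjusted p = 0.257), Psme2 by -0.20 ± 0.06 (0.396) and Psmd3, a lid subunit, by -0.12 ± 0.05 (0.581). At 6 h the values of Psme1 and of Psme2 did not overlap between the genotypes, and at 1 h they did. Of the members, 11 were lower in every Fcmr KO library than in any WT library at 6 h (22.9% of 48, beside 6.97% of all genes), and none was higher in every one (8.1% of all genes were).

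The 6 h differences were small and nearly all of a sign: 44 of 48 members were negative (beside 49.3% of all genes), with a median of -0.073 (all genes, 0.002). WT replicate 2 at 6 h was the highest of the 6 libraries for 44 of the 48 members, beside 29.1% of all genes, and Fcmr KO replicate 3 was the lowest for 33, beside 19.5%. Without WT replicate 2 at 6 h, 34 of 48 were negative with a median of -0.026, and 2 had an unadjusted p under 0.05. Without Fcmr KO replicate 3 at 6 h, 40 were negative with a median of -0.051, and 2 had an unadjusted p under 0.05. Macrophage markers were lower in Fcmr KO at 1 h, where 6 of 9 were called. At 6 h 0 of 9 were called, 7 had an unadjusted limma p under 0.05, and their median log2 fold change was -0.37. The part of macrophages in these values was not tested.

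**Figure D4:**
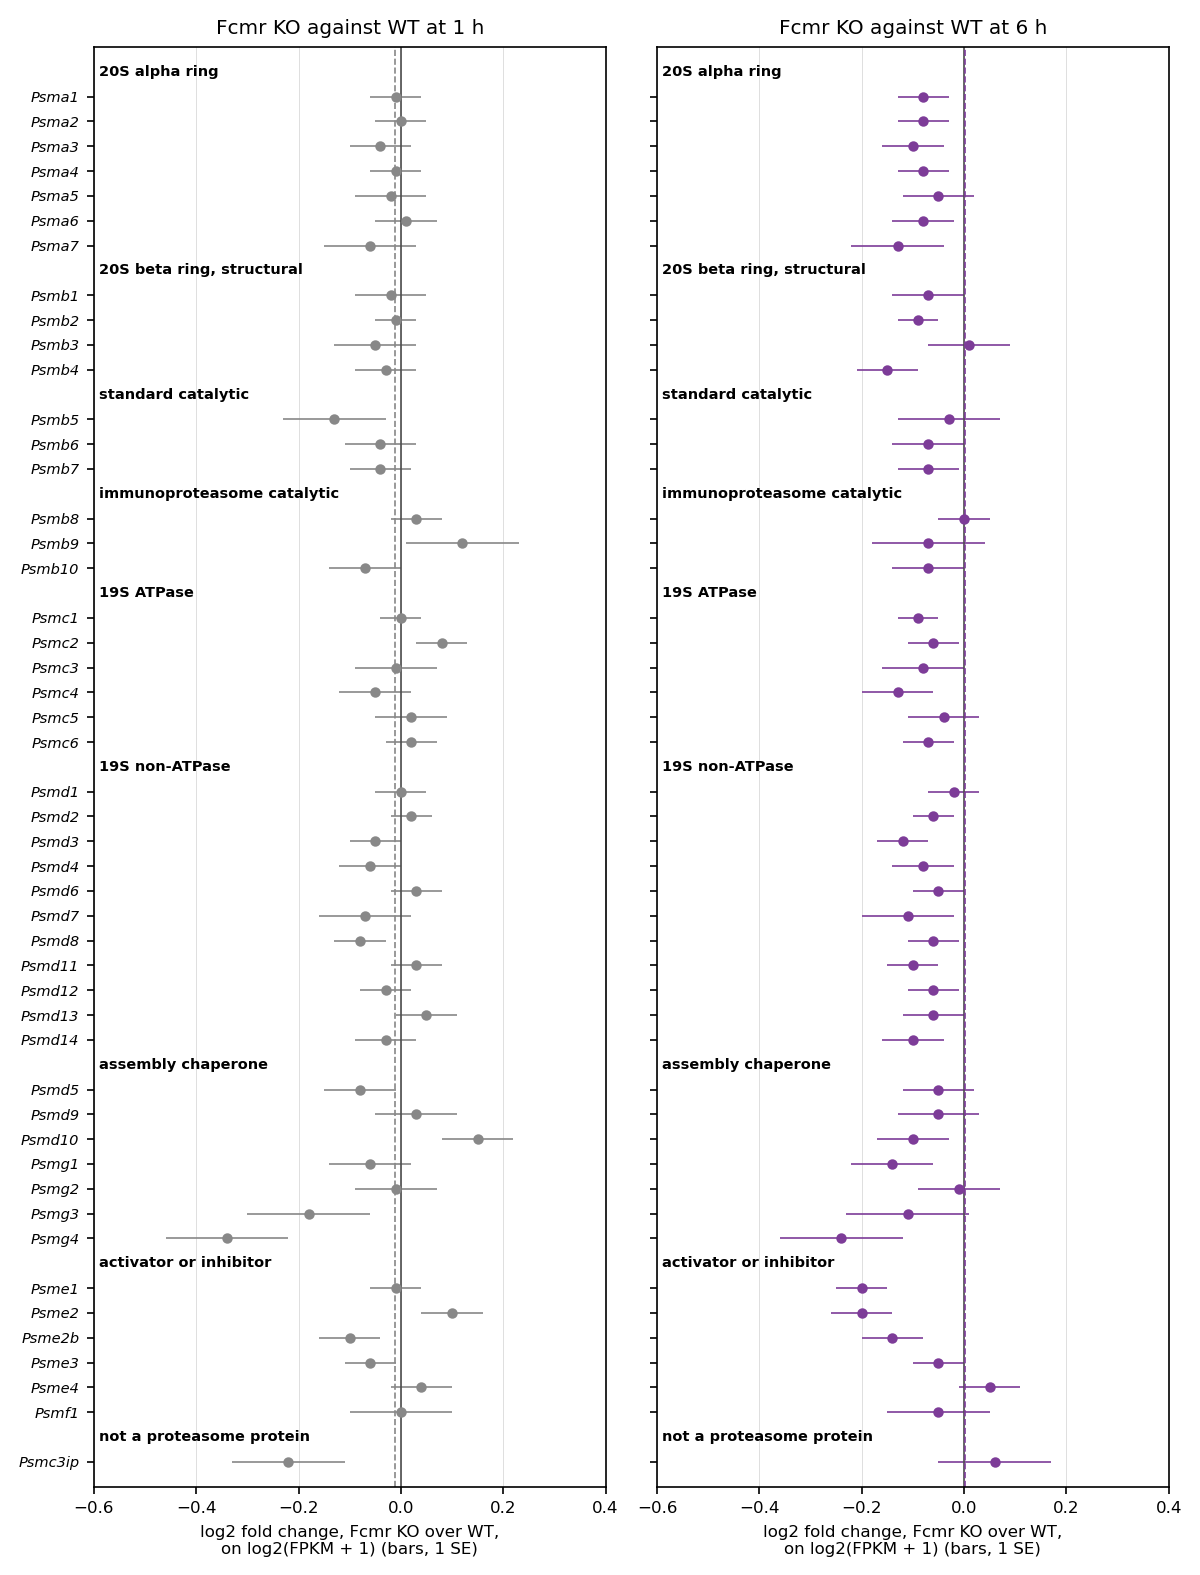
Log2 fold change of Fcmr KO over WT at 1 h (left) and 6 h (right) for each tested proteasome gene on the log2(FPKM + 1) scale, with 1 SE; dashed lines, medians of all genes tested. At 1 h the genes lie on both sides of 0, and at 6 h 44 of 48 lie below it, within -0.24 to 0.06, with none called.

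The change over time was not called different between the genotypes for any member by the test over all genes: 0 of 48 were called (0.0253% of all genes higher and 0% lower), 3 had an unadjusted limma p under 0.05, all negative (1.4% of all genes), and voom called 0 with 3 below that level. Those 3 were Psme2 (-0.30 ± 0.09, limma adjusted p = 0.962), Psme1 (-0.19 ± 0.07, 1) and Psmd10 (-0.25 ± 0.10, 1), each rising less in Fcmr KO. For the catalytic subunits the differences ran from -0.19 ± 0.15 (Psmb9) to 0.09 ± 0.15 (Psmb5). The ratios of the 3 catalytic pairs overlapped between genotypes at both times. They differed by 0.17, 0.17 and -0.04 at 1 h (two-sided exact permutation p = 0.4, 0.2 and 0.8) and by 0.04, 0.00 and -0.01 at 6 h (0.8, 1 and 0.7), in the order Psmb8, Psmb9 and Psmb10.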

How the data were processed

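RNA-seq of 12 poly-A selected, strand-marked libraries was used as deposited: the authors gave 1 table of FPKM per gene. STAR, HTSeq and mm10 are named in the submitters' processing notes; versions, the strand setting and the gene lengths are not given in the sources used here. Symbols came from GENCODE vM21. Whole fragments and library totals (19260751 to 24058818) were recovered from the FPKM values: 99.97% of the 11841 tested genes gave whole numbers within 0.001. Genes whose 12-library mean reached 1 FPKM were tested with limma 3.58.1 (R 4.3.3) on log2(FPKM + 1), as 1 mean per group with a variance trend, two-sided, with Benjamini-Hochberg adjustment over all genes tested. Fold changes on this scale understate those of low genes. Ratios of catalytic subunits were compared by exact permutation of libraries. The procedure was tested on simulated data. Members, lists and motifs were chosen with earlier results of these data known. Values in every library are given for the catalytic subunits, the Psme genes and Psmf1, and for up to 5 called members in each direction with the largest change and no overlap between groups; where none was called, the 3 with the smallest p are named, and up to 4 genes with the smallest p from each other list. Some genes of these lists are not reported here. Same-numbered libraries of 1 h and 6 h deviated together within WT (correlation 0.338 to 0.547) and within Fcmr KO (0.365 to 0.476). The numbers were therefore taken to pair times, which the labels do not state. Between genotypes (-0.150 to 0.248 at 1 h and -0.075 to 0.010 at 6 h) no such pairing was seen. Alternatives were another pseudocount (0.1), filter (none, or 5 FPKM), scaling (median ratio, TPM), voom, no variance trend, only the groups compared, a test against 1.2-fold, a replicate block and leaving out each library.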

Additional observations from a re-analysis of the deposited data

How the results depend on the processing

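The counts of members higher at 6 h stayed within 1.5 times of 45 (WT) and 46 (Fcmr KO) under all alternatives run, and ran from 44 to 46 in both genotypes when 1 library was left out. With the replicate block the counts were 45 higher and 1 lower in WT and 46 higher and 1 lower in Fcmr KO. The 1 member called lower became 3 in WT and 4 in Fcmr KO under median scaling, and 0 and 0 against a change of 1.2-fold. Psmb8 reversed under median scaling, to -0.12 in WT and -0.17 in Fcmr KO, and its call in WT was also lost with TPM, against 1.2-fold, without WT replicate 1 at 1 h and without WT replicate 2 at 6 h (0.12 in both, adjusted p = 0.0719 and 0.0662 by limma). Its call in Fcmr KO was lost without a filter, without the variance trend, with TPM, against 1.2-fold and without any 1 of 7 libraries. Psmd8 also reversed under median scaling, to -0.17 in WT and -0.15 in Fcmr KO. The Psmd8 call in Fcmr KO was lost with TPM and against 1.2-fold. No member was called between genotypes, or for the difference in change, under any alternative run, including each library left out. With the 6 pairs as a replicate block, the changes over time of the 3 log2 ratios were -1.42 (Psmb8 to Psmb5), -0.89 (Psmb9 to Psmb6) and -1.12 (Psmb10 to Psmb7). Pairing cannot move a mean change, so these are averages over the 2 genotypes and not a check. With 1 library left out, the changes of the 3 ratios ranged from -1.43 to -1.25, -0.91 to -0.69 and -1.19 to -1.05 in WT and from -1.50 to -1.46, -1.06 to -0.85 and -1.17 to -1.06 in Fcmr KO. The genotype differences of the ratios ranged from 0.11 to 0.26, 0.05 to 0.26 and -0.10 to 0.04 at 1 h and from -0.04 to 0.12, -0.11 to 0.13 and -0.07 to 0.05 at 6 h. The SE of a member's genotype difference ran from 0.04 to 0.12. FPKM values do not show absolute RNA per cell.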
